A study of Mus musculus with 33 samples.

Results

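Sema4g, Mrpl43, Lzts2, Pdzd7, Sfxn3 and Kazald1 are neighbouring genes on mouse chromosome 19, and their RNA was followed here in whole embryonic kidneys that carried both copies, 1 copy or no copy of Six2. They were taken by name from the deposited count table, and all 6 were found among its 35349 gene symbols. Sema4g and Kazald1 end the stretch, which spans 90.2 kb. The stretch was chosen by measured values, with the genotype differences of Sema4g at embryonic day 11.5 (E11.5) known, so the genotype differences at E11.5 are given as a description. Where the test across all genes counts calls among them, the count is set beside the share of all genes and nothing is read from it. It is not recorded which other comparisons were in view, so the results at E15.5 are no independent support for the choice.

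The study sequenced RNA of snap-frozen whole kidneys from Six2 knockout (KO), heterozygous (Het) and wild-type (WT) mouse embryos. At E11.5 there were 5 KO, 5 Het and 6 WT specimens, called embryos here for short. At E15.5 there were 4 Het and 4 WT specimens. These 24 specimens gave 33 libraries, because all E15.5 specimens and 1 Het embryo have a library in each of the 2 batches that the labels number, and the counts of such libraries were summed. The labels do not say what a batch is, nor whether a batch number means the same at both stages. The KO group held 4 females and 1 male, the Het group 2 and 3 and the WT group 4 and 2 at E11.5, and each E15.5 genotype held 1 female and 3 males. The labels do not describe the Six2 allele. The titles of the batch 1 libraries of the E15.5 Het kidneys carry the letters GCE. Those of their batch 2 libraries and of the E11.5 Het libraries do not, and whether both stages carry the same allele is not given. The labels also do not say whether a specimen was 1 embryo or a pool, so the spread between specimens may be partly technical.

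Six2 is a homeodomain transcription factor that holds the progenitors of the nephron, in the cap mesenchyme around the ureteric bud, in an undifferentiated state. It lies on another chromosome than the 6 genes. Semaphorins, the family of Sema4g, are guidance molecules that signal to neighbouring cells through plexin receptors, and the class 4 members are anchored in the membrane. Kazald1 encodes a secreted protein with an insulin-like growth factor binding domain and a Kazal-type protease inhibitor domain. Pdzd7 is a PDZ scaffold protein best known from the stereocilia of inner ear hair cells, where it works with the Usher syndrome proteins. Lzts2 binds beta-catenin and restrains its nuclear activity. Mrpl43 is a protein of the large subunit of the mitochondrial ribosome, and Sfxn3 is a sideroflexin, an amino acid carrier of mitochondria.

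In the GENCODE vM21 annotation, from lower to higher coordinates of chromosome 19 on mm10, Sema4g (ENSMUSG00000025207) runs from 44989101 to 45003397 on the plus strand. Mrpl43 (ENSMUSG00000025208, 45004829 to 45006442) follows on the minus strand, then Lzts2 (ENSMUSG00000035342, 45014414 to 45027111) on the plus strand. Pdzd7 (ENSMUSG00000074818, 45026906 to 45045717) lies on the minus strand. Sfxn3 (ENSMUSG00000025212, 45047503 to 45056383) and Kazald1 (ENSMUSG00000025213, 45075241 to 45079289) lie on the plus strand. Sema4g and Pdzd7, the most alike of the genes at E11.5, are thus on opposite strands and have Mrpl43 and Lzts2 between them. The same stretch holds Twnk, listed in the table as Peo1, which encodes the helicase of mitochondrial DNA, and Slf2, listed as Fam178a, lies just before it. These 2 are not among the 6 and are given as neighbours.

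Several of these genes share bases, and the strand setting of the authors' counting is not given in the sources used here, so reads of overlapping genes on opposite strands cannot be assigned with certainty. Mrpl43 and Twnk overlap by 780 bases, and Lzts2 and Pdzd7 by 206 bases at the end of both. RefSeq draws a longer Pdzd7 that covers 9611 bases of Sfxn3. Kazald1 lies inside AC132957.1, a long intergenic RNA on the same strand that overlaps it by 4049 bases.

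The promoter windows of Sema4g, Pdzd7 and Kazald1, the genes that were lower in Six2 mutant kidneys, are shown because they differ in sequence type. Each holds 250 bases before and 50 after a RefSeq start site on GRCm38.p6 and is written 5′ to 3′ on the strand of the gene. Capitals mark CG dinucleotides and, in Kazald1, the TATA box TATATAA. The Sema4g window is chr19:44989094-44989393 on the plus strand, that of Pdzd7 chr19:45045723-45046022 on the minus strand and that of Kazald1 chr19:45074991-45075290 on the plus strand.
Sema4g: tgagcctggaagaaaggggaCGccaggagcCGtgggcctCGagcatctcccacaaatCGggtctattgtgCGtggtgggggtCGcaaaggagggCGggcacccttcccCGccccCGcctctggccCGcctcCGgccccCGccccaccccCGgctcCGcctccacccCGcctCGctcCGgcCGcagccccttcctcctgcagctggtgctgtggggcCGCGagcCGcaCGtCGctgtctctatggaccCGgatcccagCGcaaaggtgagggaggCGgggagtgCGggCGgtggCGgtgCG
Pdzd7: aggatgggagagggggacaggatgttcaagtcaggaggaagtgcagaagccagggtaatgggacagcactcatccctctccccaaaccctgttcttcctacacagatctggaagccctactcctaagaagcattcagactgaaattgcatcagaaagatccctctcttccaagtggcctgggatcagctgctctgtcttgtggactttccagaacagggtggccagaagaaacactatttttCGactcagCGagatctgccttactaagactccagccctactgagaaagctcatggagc
Kazald1: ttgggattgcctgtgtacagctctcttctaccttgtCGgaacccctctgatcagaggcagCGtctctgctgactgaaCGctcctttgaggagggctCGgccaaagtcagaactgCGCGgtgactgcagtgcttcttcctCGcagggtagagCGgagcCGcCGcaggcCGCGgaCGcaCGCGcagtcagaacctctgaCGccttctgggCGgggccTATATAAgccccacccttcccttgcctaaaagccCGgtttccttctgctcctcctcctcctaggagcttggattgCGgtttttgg
The Sema4g window holds 30 CG dinucleotides and is 73.3% G and C. The Pdzd7 window holds 2 and is 51% G and C, and the Kazald1 window holds 19 and is 60% G and C, against a median of 52.7% over all 32851 promoter windows of the table. The table holds 9 such windows for the 6 genes, with more than 1 for Lzts2 and Kazald1. RefSeq also draws Sema4g, Pdzd7, Sfxn3 and Kazald1 from starts further upstream, which have no window among them and were not searched. On either strand, 0 of the 9 hold TCAGGTT, the MEF3 motif bound by Six2 and its relatives, which 4.07% of all windows hold. Likewise 0 of 9 hold ATCAAAG, a TCF/LEF motif held by 3.73% of all windows. The TATA box, a motif added after the sequences were seen, begins 35 bases before the start site in the window shown for Kazald1 and is held by 3.24% of all windows. These are matches of letters in short windows, which leave out more distant regulatory sequence.

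Libraries held 10.82 to 42.07 times 1e+06 counts. Six2 itself checked the labels: it averaged 0.472 ± 0.134 counts per 1e+06 (CPM) in KO, 13.1 ± 2.88 in Het and 25.0 ± 5.63 in WT kidneys at E11.5 (SD, n = 5, 5 and 6), and 6.15 ± 0.341 in Het and 11.7 ± 0.834 in WT kidneys at E15.5 (n = 4 each). Ribosomal RNA took more than 5% of the counts in 6 E11.5 libraries, all of batch 1. In that batch its share was 0.879% to 12.5% in KO, 3.57% to 18.7% in Het and 20.5% to 26.6% in WT libraries, and in batch 2 it was at most 0.469%. Each marker list of the kidney and of its neighbouring tissues was detected in all groups, with no marker at 0 in a whole group.

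Per length of the gene, Lzts2 had the highest and Kazald1 the lowest level in E11.5 kidneys. In WT kidneys at E11.5 the levels per kb were 49.7 ± 11.3 CPM for Lzts2, 34.2 ± 8.06 for Mrpl43, 6.3 ± 1.61 for Sema4g, 2.80 ± 0.599 for Sfxn3, 1.35 ± 0.199 for Pdzd7 and 0.412 ± 0.120 for Kazald1 (SD, n = 6). The ranges of Lzts2 and Mrpl43 overlapped, and every other pair of neighbours in this order was apart. In KO and in Het kidneys of E11.5 the order was the same, with Sema4g (3.65 ± 0.535 CPM per kb in KO, 4.31 ± 0.936 in Het) reaching into the range of Sfxn3 (2.56 ± 0.537 in KO, 2.72 ± 0.567 in Het). At E15.5 the order of the low genes differed by genotype. In Het kidneys Kazald1 (0.911 ± 0.0659 CPM per kb) was below Sema4g (1.98 ± 0.136) and Sfxn3 (2.56 ± 0.0751) with no overlap, while in WT kidneys Kazald1 (2.73 ± 0.1) lay between Sfxn3 (2.92 ± 0.0682) and Sema4g (2.60 ± 0.152), with ranges that overlapped on both sides (n = 4 each).

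**Figure D1:**
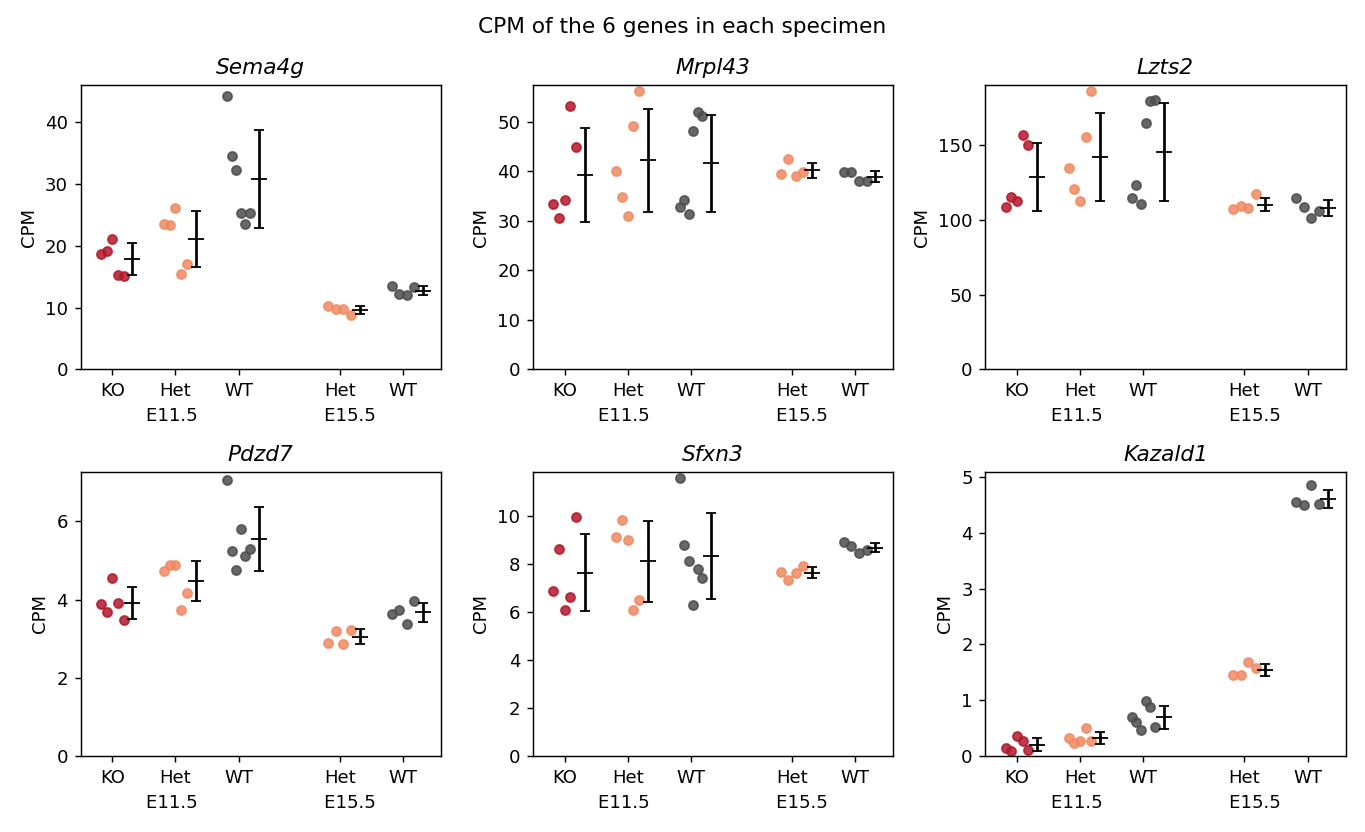
CPM (linear axes from 0) of the 6 genes in each of the 24 specimens, by genotype at E11.5 (left) and E15.5 (right); points are specimens, bars mean ± SD. Sema4g and Pdzd7 are lower in KO than in WT kidneys at E11.5, and all Het values of Kazald1 at E15.5 (1.45 to 1.68) lie below the WT values (4.49 to 4.85).

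Sema4g, the semaphorin, was lower with fewer Six2 copies at E11.5. Its level was 18.6, 19.2, 21.1, 15.2 and 15.1 CPM in the KO kidneys. In the Het kidneys it was 23.4, 23.4, 26.0, 15.4 and 17.0 CPM, and in the WT kidneys it ran from 23.4 to 44.2 with a median of 28.7 CPM. All KO values were below all WT values, while the Het values overlapped both of the other genotypes. The log2 fold change was -0.81 ± 0.09 (SE) in KO against WT kidneys, or 57.0% of the WT level. It was -0.56 ± 0.09 in Het against WT kidneys (67.9%) and -0.25 ± 0.10 in KO against Het kidneys (83.9%). In bulk RNA, fewer cells of a type and less RNA per cell cannot be told apart. The summed level of 12 nephron progenitor markers, Six2 left out, was 255 to 336 CPM in KO, 502 to 797 in Het and 552 to 845 in WT kidneys, so that it was lower in KO kidneys, and Het and WT kidneys overlapped. The sums of other cell type lists also differed, and those of the ureteric bud and macrophage lists overlapped between genotypes. The 8 early nephron markers summed to 321 to 452 CPM in KO, 297 to 335 in Het and 223 to 320 in WT kidneys, and 4 of them were called higher in KO than in WT kidneys. The 9 ureteric bud markers summed to 385 to 559, 321 to 441 and 233 to 418 CPM in KO, Het and WT kidneys, with 4 called higher in KO kidneys. The 7 macrophage markers summed to 95.1 to 224, 90.8 to 167 and 63.4 to 132 CPM, with 7 called higher in KO kidneys. Of 13 nephron progenitor markers, Six2 among them, 12 were called lower, with Crym, Meox1, Meox2, Traf1 and Phf19 among the 12. This list was chosen with earlier results of these data known, so its count is no independent readout of the cell type. The renal stroma and neural lists each held 1 called higher, and the adrenal and gonad list 1 called lower. The endothelium, erythroid and skeletal muscle lists held 0. Of all genes tested, 3.06% were called higher and 4.03% lower in KO than in WT kidneys. The part of these cell types in the values of the 6 genes was not tested.

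Within a batch the Sema4g libraries of the 3 genotypes did not overlap at E11.5, though by narrow gaps in places. The share of all genes with such a separation was not counted. In batch 1 all KO embryos were female and all Het embryos male, and the Het embryo with 2 libraries is in both batches. In batch 1 they held 18.5 to 21.0 CPM in KO, 23.8 to 32 in Het and 32.3 to 43.0 in WT (3 libraries each). In batch 2 they held 15.1 to 15.3 CPM in 2 KO, 15.5 to 19.4 in 3 Het and 23.4 to 25.3 in 3 WT libraries. The overlap between Het and the other genotypes over all embryos thus came with the higher Sema4g level of batch 1. The ribosomal RNA shares of batch 1 run in the same genotype order, and their part in the batch 1 values was not tested. In batch 2, where that share is below 0.5% in every library, the log2 fold changes were -0.71 ± 0.12 in KO against WT kidneys and -0.52 ± 0.10 in Het against WT kidneys, and in batch 1 they were -0.95 ± 0.16 and -0.34 ± 0.20.

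**Figure D2:**
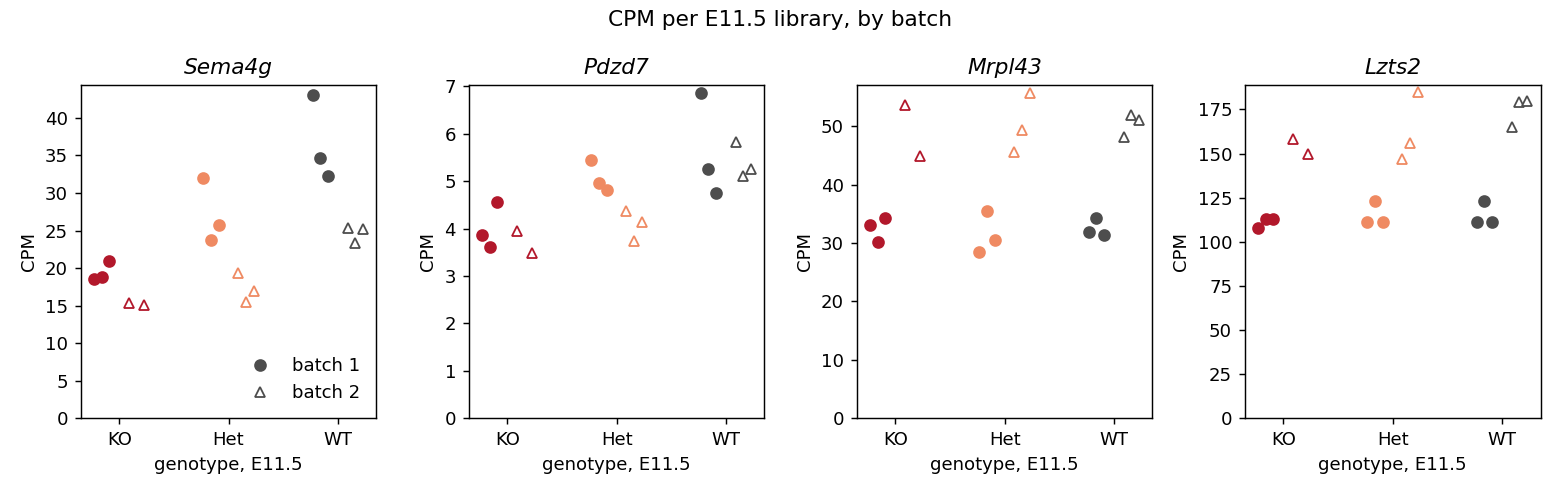
CPM (linear axes from 0) of Sema4g, Pdzd7, Mrpl43 and Lzts2 in each E11.5 library, by genotype; filled circles are batch 1, open triangles batch 2. Within each batch Sema4g is lowest in KO and highest in WT libraries, whereas Mrpl43 and Lzts2 separate by batch and not by genotype.

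Pdzd7, the PDZ scaffold gene, had the same order at a lower level. It was at 3.89, 3.68, 4.56, 3.92 and 3.48 CPM in KO and at 4.72, 4.87, 4.87, 3.72 and 4.18 CPM in Het kidneys. In WT kidneys it ran from 4.75 to 7.06 with a median of 5.26 CPM, so that KO and WT values did not overlap and Het values reached into both. The log2 fold change was -0.51 ± 0.13 in KO against WT kidneys (70.5% of WT), -0.33 ± 0.13 in Het against WT kidneys (79.8%) and -0.18 ± 0.14 in KO against Het kidneys.

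Kazald1, the secreted growth factor binding protein, was near the limit of detection at E11.5, with 17 counts over the 5 KO, 39 over the 5 Het and 73 over the 6 WT kidneys. The KO kidneys held 3, 1, 6, 5 and 2 counts and the Het kidneys 13, 4, 4, 12 and 6. The WT kidneys held 8 to 20 counts. In CPM, KO kidneys were at 0.0968 to 0.370 and WT kidneys at 0.475 to 0.985 CPM, which did not overlap, and Het kidneys at 0.238 to 0.508 reached into both ranges. Kazald1 did not pass the filter on low counts at E11.5, so it is missing from the tests of that stage. Fitted to the E11.5 embryos with no filter, it had log2 fold changes of -1.67 ± 0.44 in KO and -1.05 ± 0.39 in Het against WT kidneys. A fit over all 24 specimens, chosen after seeing the data, gave -1.67 ± 0.30 and -1.07 ± 0.25, and -0.60 ± 0.34 in KO against Het kidneys. Kazald1 enters that fit through the E15.5 kidneys, where it is high, and takes part of its spread from them, so these values are a description alone.

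The 3 other genes had smaller fold changes between genotypes at E11.5 than Sema4g, Pdzd7 and Kazald1. Lzts2, the beta-catenin binding protein, averaged 129 ± 22.7 CPM in KO, 142 ± 29.5 in Het and 145 ± 33.0 in WT kidneys. Its log2 fold change was -0.12 ± 0.05 in KO and -0.02 ± 0.05 in Het against WT kidneys. Mrpl43, of the mitochondrial ribosome, averaged 39.3 ± 9.52 CPM in KO, 42.2 ± 10.3 in Het and 41.6 ± 9.80 in WT kidneys. Its log2 fold change was -0.02 ± 0.06 in KO and 0.04 ± 0.06 in Het against WT kidneys, and the interval of its KO level was 90.5% to 107% of WT. The large SDs of both genes lay between the batches: Lzts2 libraries held 108 to 123 CPM in batch 1 and 147 to 185 in batch 2, and Mrpl43 libraries at most 35.4 CPM in batch 1 and up to 55.7 in batch 2, without overlap. Sfxn3, the mitochondrial carrier, averaged 7.62 ± 1.60 CPM in KO, 8.10 ± 1.69 in Het and 8.33 ± 1.78 in WT kidneys (n = 5, 5 and 6 for the SDs). Its log2 fold changes were -0.12 ± 0.15 in KO and -0.12 ± 0.16 in Het against WT kidneys. The interval of its KO level was wide, at 73.8% to 115% of WT. In KO against WT kidneys Sfxn3 was at -0.45 ± 0.20 in batch 1 alone and 0.15 ± 0.22 in batch 2 alone.

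Of the 5 genes tested at E11.5, edgeR's quasi-likelihood test called 2 lower in KO than in WT kidneys, Sema4g and Pdzd7, where 4.03% of all 16141 genes tested were called lower. It called 1 of 5 lower in Het than in WT kidneys, Sema4g, against 0.0558% of all genes. It called 0 of 5 in KO against Het kidneys, where 3.69% of all genes were called, 1 of 5 had an unadjusted p under 0.05 and DESeq2 also called 0. Ranges of KO and WT kidneys did not overlap for 2 of 5 genes, both lower, against 2.01% of all genes. Nothing is read from these shares, since the genes were chosen with these comparisons known. The Pdzd7 call ended in 6 of 12 alternative settings, each batch alone among them, and without KO replicate 2, KO replicate 5 or WT replicate 1. The Het call of Sema4g ended in 5 of 12 alternatives and in 6 of 11 fits with 1 embryo left out (replicates 2, 3, 4 or 5 of Het, 2 or 4 of WT), with log2 fold changes of -0.59 to -0.49 when 1 embryo was left out. The value was -0.34 ± 0.20 in batch 1 alone and -0.39 ± 0.14 with the title prefix as a block.

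**Figure D3:**
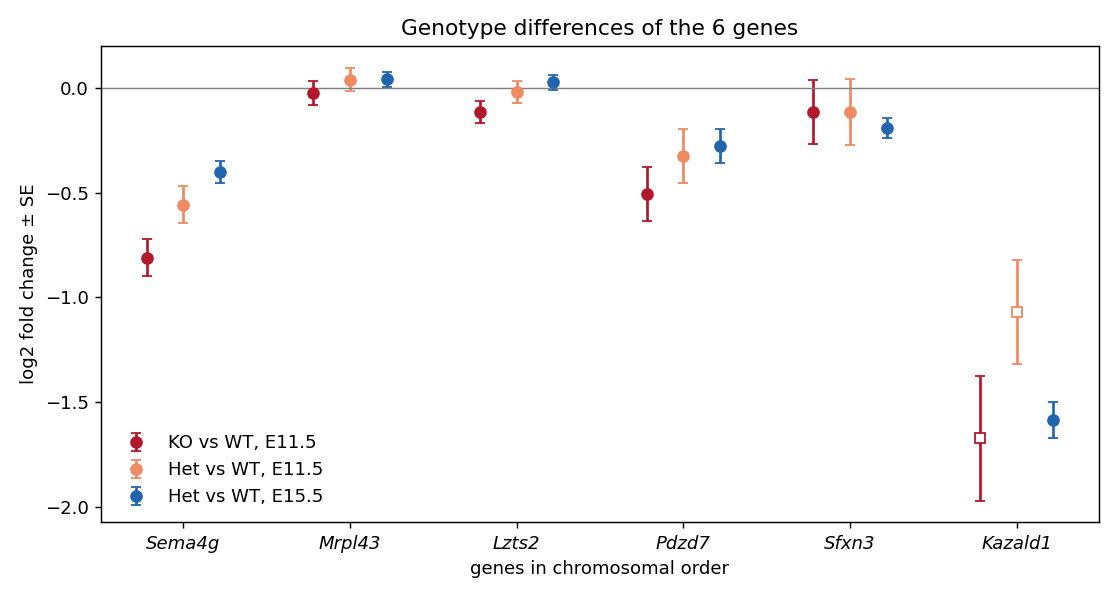
Log2 fold change ± SE (y axis) of the 6 genes in chromosomal order (x axis), for KO against WT and Het against WT kidneys at E11.5 and Het against WT kidneys at E15.5; open squares are from the fit over all 24 specimens. Sema4g, Pdzd7 and Kazald1 lie below 0 in all comparisons. Sfxn3 is at -0.12 ± 0.15, -0.12 ± 0.16 and -0.19 ± 0.05. Lzts2 is at -0.12 ± 0.05, -0.02 ± 0.05 and 0.03 ± 0.03, and Mrpl43 stays within 0.04 of 0.

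Loss of 1 Six2 copy at E15.5 was compared in other specimens. Kazald1 was now well detected and showed the largest difference of the 6 genes. It was at 1.45, 1.45, 1.68 and 1.57 CPM in Het kidneys, from 75 to 111 counts each. In WT kidneys it was at 4.55, 4.49, 4.85 and 4.52 CPM, from 218 to 323 counts each. The groups lay far apart, with little spread inside each. Kazald1 fell to 33.3% of the WT level in Het kidneys (95% confidence interval 29.3% to 37.9%, log2 -1.58 ± 0.08, edgeR adjusted p = 2.27e-06 over 18244 genes). The call held in 9 of 9 alternative settings and with each specimen left out (adjusted p up to 4.2e-05). Reads that Kazald1 may share with AC132957.1 were not separated.

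Sema4g also fell at E15.5. It was at 10.3, 9.72, 9.84 and 8.73 CPM in Het kidneys, against 13.4, 12.2, 12 and 13.3 CPM in WT kidneys. The groups did not overlap, and the Het level was 75.6% of WT (69.9% to 81.8%, log2 -0.40 ± 0.05, edgeR adjusted p = 0.00293). The call held with each specimen left out (adjusted p up to 0.0227), but not in batch 2 alone (-0.46 ± 0.09, adjusted p = 0.0603) or in the fit over all 24 specimens (-0.40 ± 0.09, adjusted p = 0.131). Pdzd7 was at 2.9, 3.2, 2.87 and 3.23 CPM in Het kidneys and at 3.62, 3.75, 3.38 and 3.95 CPM in WT kidneys. These values did not overlap either, but the log2 fold change of -0.28 ± 0.08 did not pass (edgeR adjusted p = 0.249). Sfxn3 was at 7.65, 7.35, 7.62 and 7.90 CPM in Het kidneys and at 8.93, 8.75, 8.46 and 8.59 CPM in WT kidneys, again without overlap. Its log2 fold change was -0.19 ± 0.05 (edgeR adjusted p = 0.174). RefSeq's longer Pdzd7 overlaps Sfxn3, and shared reads between these 2 genes were not separated.

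Lzts2 and Mrpl43 overlapped between genotypes at E15.5. Lzts2 averaged 110 ± 4.59 CPM in Het and 108 ± 5.41 in WT kidneys, at 102% of WT (96.6% to 107%, edgeR adjusted p = 0.916). Mrpl43 averaged 40.2 ± 1.51 CPM in Het and 38.9 ± 1.09 in WT kidneys (SD, n = 4 each), at 103% (97.5% to 108%, adjusted p = 0.828). Both intervals exclude a fall of the size seen in Sema4g. In all, 2 of 6 genes were called lower against 0.362% of all genes tested, and 4 of 6 had lower Het ranges without overlap against 2.21% of all genes. For the 4 genes without overlap, an exact two-sided permutation test of log2 CPM returns by construction the smallest p that the 70 splits of 4 against 4 allow, 0.0286, and says no more than the lack of overlap. The same exact permutation test gave p = 0.286 for Mrpl43 and 0.457 for Lzts2. The 12 nephron progenitor markers summed to 558 to 604 CPM in Het and 615 to 648 CPM in WT kidneys. The 8 early nephron markers summed to 998 to 1020 CPM in Het and 917 to 971 in WT kidneys, the 9 ureteric bud markers to 983 to 1030 and 930 to 973, and the 9 erythroid markers to 948 to 1130 and 852 to 898. None of these 4 sums overlapped between genotypes. Those of the renal stroma, endothelium, macrophage, neural, skeletal muscle, and adrenal and gonad lists did overlap. Of 13 progenitor markers, Six2 among them, 7 were called lower and 1 higher, against 0.362% and 0.208% of all genes. That list was chosen with earlier results of these data known. The early nephron and ureteric bud lists held 0 called, and the erythroid list 1 called higher. The part of these cell types in the differences was not tested. The median log2 fold change of all genes was 0.00 here.

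The difference between the Het effects at E15.5 and at E11.5 was tested over all 24 specimens. It was 0.16 ± 0.12 for Sema4g (95% confidence interval -0.08 to 0.40) and -0.51 ± 0.31 for Kazald1 (-1.15 to 0.13), each with an edgeR adjusted p of 1. For Pdzd7 it was 0.04 ± 0.16. None of the 6 genes passed by edgeR or DESeq2, 0 had an unadjusted p under 0.05, and 0.00576% of 17362 genes were called by edgeR. Kazald1 had 39 counts over the Het and 73 over the WT kidneys of E11.5, where it did not pass the filter on low counts. It enters this fit through the E15.5 kidneys, where it is high, and takes part of its spread from them. Its interval, which includes 0 as well as a Het effect that is larger at E15.5, is therefore a description alone.

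Between the stages the genes at the 2 ends of the stretch went opposite ways in WT kidneys. Kazald1 was at 4.6 ± 0.169 CPM at E15.5 and 0.696 ± 0.202 CPM at E11.5 (SD, n = 4 and 6), a log2 fold change of 2.74 ± 0.19 or 670% of the E11.5 level (edgeR adjusted p = 1.93e-11). Sema4g was at 12.7 ± 0.741 CPM at E15.5 and 30.8 ± 7.89 CPM at E11.5, a log2 fold change of -1.28 ± 0.08 or 41.2% (adjusted p = 8.31e-12). Neither gene's ranges overlapped between stages. Kazald1 passed the filter here through the E15.5 kidneys, where it is high, and without a filter its log2 fold change was 2.77 ± 0.20. Here too, reads that it may share with AC132957.1 were not separated. Pdzd7 fell to 66.4% (-0.59 ± 0.11, adjusted p = 7.28e-05) with no overlap, and Lzts2 to 76.7% (-0.38 ± 0.05, adjusted p = 7.48e-07) with overlap. Mrpl43 (-0.04 ± 0.05, adjusted p = 0.524) and Sfxn3 (0.02 ± 0.14, adjusted p = 0.900) did not pass. Thus 4 of 6 genes were called, 1 higher and 3 lower. Of all genes 66.1% were called, 34% higher and 32.1% lower. Ranges did not overlap between stages for 3 of 6 genes, against 44.1% of all genes. Nothing is read from these counts. No label ties a library of one stage to a batch of the other, so stage and batch cannot be told apart. Cell type markers moved with stage as well: the early nephron markers summed to 917 to 971 CPM at E15.5 and 223 to 320 at E11.5 in WT kidneys, the ureteric bud markers to 930 to 973 and 233 to 418, and the 7 neural markers to 20 to 23.4 and 60.4 to 163. Their part in the stage differences was not tested. In fits to 1 batch, the batches of the stages were paired by number alone. Ribosomal RNA took 20.5% to 26.6% of the batch 1 WT counts at E11.5 and 0.543% to 0.74% at E15.5, and its part was not tested. Sema4g's fall was 1.61 with batch 1 alone and 0.96 with batch 2 alone, and Kazald1's log2 fold change was 2.96 and 2.48. For Lzts2 it was -0.11 in batch 1 alone (adjusted p = 0.0656) and -0.67 in batch 2 alone, and for Mrpl43 it was 0.18 and -0.25 (adjusted p = 0.0268 and 0.00475). Of the 12 other class 4 semaphorins and their receptors, 5 were higher and 6 lower at E15.5, among them Sema4a (1.50 ± 0.14) and Sema4f (-0.81 ± 0.17). Of the 46 other mitochondrial ribosome genes 17 were higher and 1 lower, and of the 4 other sideroflexins 3 were higher and 1 lower. Of 12 insulin-like growth factor genes 4 were higher and 4 lower, with Igfbp7, another binding protein, at 5.54 ± 0.25 and Igf2 at -1.07 ± 0.12.

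**Figure D4:**
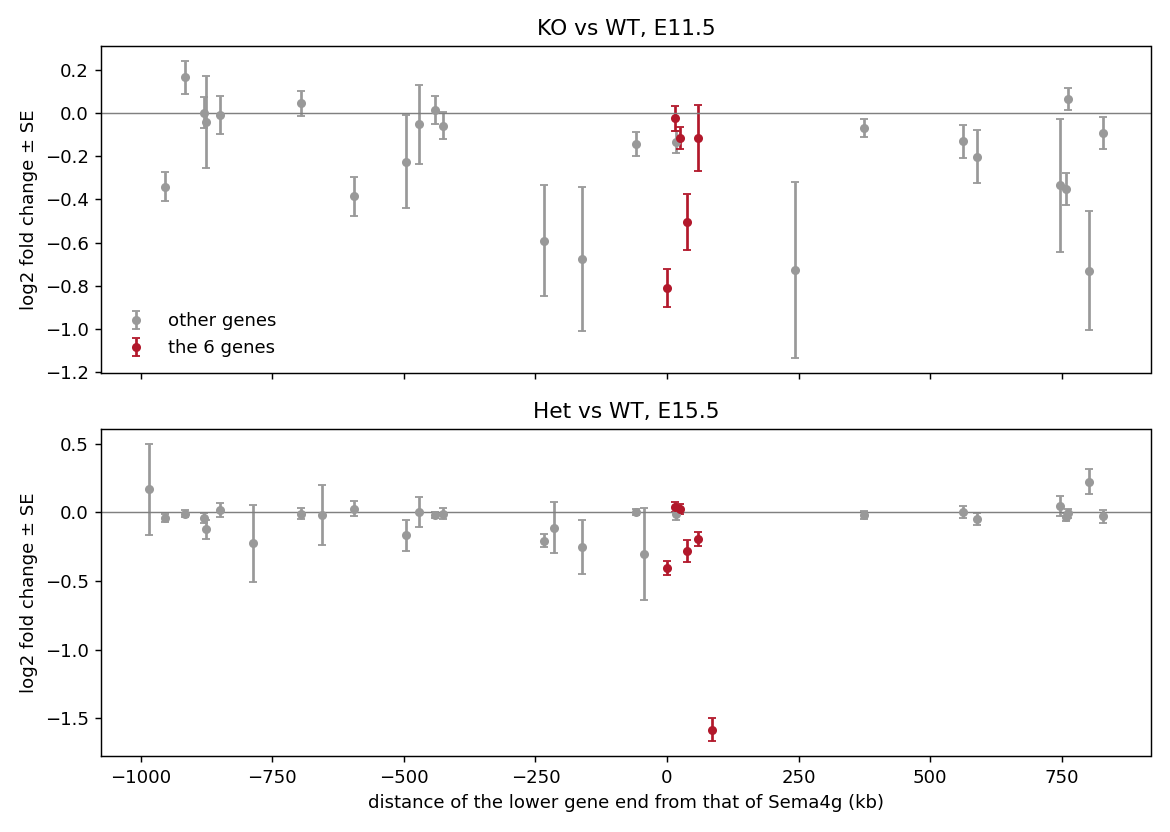
Log2 fold change ± SE (y axes) of each tested gene within about 1 Mb of Sema4g, by the distance of its lower end from that of Sema4g in kb (x axis), in KO against WT kidneys at E11.5 (top) and Het against WT kidneys at E15.5 (bottom); red points are the 6 genes, of which Kazald1 was not tested in the top panel. Sema4g (top) and Kazald1 (bottom) are the lowest points of their panels, and Pdzd7 (top, -0.51) lies below the genes beside it but above Lbx1 and Kcnip2 (both -0.73), 1700039E22Rik (-0.68) and Pax2 (-0.59).

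The genes around the stretch were read from the same fits. Of 62 annotated genes between 44 and 46 Mb, 46 are in the table and 40 of those are not among the 6. At E15.5, edgeR called 0 of 28 tested in Het against WT kidneys, where 0.57% of all genes were called. Their log2 fold changes were -0.30 to 0.22, 2 had an unadjusted p under 0.05, and DESeq2 called 0. At E11.5 edgeR called 0 of 24 in Het against WT kidneys, where 0.0681% of all genes were called, 0 had an unadjusted p under 0.05 and DESeq2 called 0. In KO against WT kidneys 8 of 24 had an unadjusted p under 0.05, with log2 fold changes of -0.73 to 0.17. Of these 24, 3 were called, all lower, where 4.03% of all genes were called lower: Erlin1, a lipid raft protein of the endoplasmic reticulum (-0.34 ± 0.07), Scd1, a fatty acid desaturase (-0.38 ± 0.09), and Npm3, a nuclear chaperone (-0.35 ± 0.07). The median of the 24 was -0.13, against 0.00 for all genes tested. Twnk, between Mrpl43 and Lzts2, was at -0.13 ± 0.05 in KO against WT kidneys and -0.01 ± 0.04 in Het against WT kidneys at E15.5. Slf2, upstream of Sema4g, was at -0.14 ± 0.05 and 0.00 ± 0.02. Pax2, a kidney transcription factor whose gene ends 151.2 kb before Sema4g, was at -0.59 ± 0.26 and -0.21 ± 0.05 in the same comparisons, with edgeR adjusted p of 0.205 and 0.128. Named after their values were seen, Lbx1, a homeobox gene, was at -0.73 ± 0.41 and Kcnip2, a potassium channel interacting protein, at -0.73 ± 0.28 in KO against WT kidneys, further below 0 than Pdzd7, with edgeR adjusted p of 0.345 and 0.136.

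Sema4g and Pdzd7 were most alike among the 5 genes over the 16 E11.5 embryos. With sex and batch removed and genotype kept, Pearson's r of log2 CPM between them was 0.93, which placed Pdzd7 4th among 16140 genes for likeness to Sema4g. Lzts2 was 2275th (0.43), Sfxn3 2865th (0.38) and Mrpl43 7021st (0.07). With genotype removed too, r between Sema4g and Pdzd7 was 0.79, and its rank among all genes was not taken. WT replicate 1 had the highest CPM of both genes at E11.5 (44.2 and 7.06), and r without that embryo was not computed. These correlations describe 16 embryos that fall into 3 genotypes and 2 batches, and they carry no test. The other genes most like Sema4g were Adam11 (0.939), a disintegrin, Actn3 (0.938), an alpha-actinin, Sypl2 (0.929), a synaptophysin-like membrane protein, Ciita (0.920), the transactivator of MHC class II genes, and Fgd1 (0.917), an activator of the GTPase Cdc42. Their log2 fold changes were -0.65, -1.67, -2.54, -1.87 and -0.29 in KO against WT kidneys, and -0.12, -1.21, -0.43, -0.36 and -0.16 in Het against WT kidneys at E15.5. These genes were picked over the same E11.5 embryos with genotype kept, so their falls in KO kidneys follow in part from that choice. The gene most like Mrpl43 was Nme4 (0.877), a nucleoside diphosphate kinase of mitochondria. For Lzts2 it was Hn1 (0.933), for Pdzd7 Adam11 (0.937) and for Sfxn3 Ino80dos (0.823).

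Relatives of the 6 genes elsewhere in the genome were counted beside the share of all genes called, which was 7.09% in KO against WT kidneys and 0.57% in Het against WT kidneys at E15.5. Nothing particular to a list is read from its count. Of 12 other class 4 semaphorins, plexins and neuropilins, edgeR called 0 in KO against WT kidneys (median log2 fold change 0.03, 1 with an unadjusted p under 0.05) and 0 in Het against WT kidneys at E15.5 (median 0.03, 0 with an unadjusted p under 0.05); DESeq2 called 0 and 0. Of 46 other proteins of the large mitochondrial ribosome subunit, edgeR called 0 in both comparisons (2 and 0 with an unadjusted p under 0.05; DESeq2 called 1 and 0). Of 7 Usher complex genes, Myo7a, an unconventional myosin, was higher in KO kidneys (0.20 ± 0.04, edgeR adjusted p = 0.00966), and Whrn, the close relative of Pdzd7 called whirlin, was lower in Het kidneys at E15.5 (-0.35 ± 0.05, adjusted p = 0.0128). Of 11 insulin-like growth factor genes and binding proteins, the receptor Igf1r was lower in KO kidneys (-0.21 ± 0.05, adjusted p = 0.0143) and Igfbp2, a secreted binding protein, was lower in Het kidneys at E15.5 (-0.16 ± 0.02, adjusted p = 0.0103). Of 10 beta-catenin antagonists and Lzts2 relatives, 0 were called in both comparisons (3 and 0 with an unadjusted p under 0.05; DESeq2 called 3 and 0). Of 4 other sideroflexins, 0 were called in both (1 and 0; DESeq2 called 1 and 0).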

How the data were processed

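RNA was extracted from snap-frozen whole kidneys with a column kit and sequenced as standard Illumina libraries, per the labels' protocols. The authors deposited 1 table of raw counts per gene symbol for 33 libraries, with the gene length used here for levels per kb. STAR 2.4.0h1, featureCounts 1.4.6 and build mm10 are named, per the submitters' processing notes; annotation, strand setting and handling of multiply mapped reads are not given in the sources used here. Total counts per library, in 1e+06, were 10.82 to 26.23 at E11.5 and 16.8 to 42.07 at E15.5, which limits Kazald1 most.

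Libraries of 1 specimen were summed (24 specimens). Counts were tested over all genes with edgeR 4.0.16 in R 4.3.3: filterByExpr (minimum count 10, minimum total 15), trimmed mean of M values scaling, and the quasi-likelihood test, calling genes at a Benjamini-Hochberg adjusted p of 0.05. At E11.5, 16 embryos were fitted to genotype, sex and batch, at E15.5, 8 specimens to genotype and sex, and stages and the difference of the Het effects were fitted over all 24. The replicate number of the E11.5 titles equals the batch, so batch is the replicate block. CPM values use scaled library sizes. Permutation used log2(CPM + 0.1), and correlations log2 CPM with a prior count of 2. The fit was tested on simulated data. Intervals reflect counting error and specimen spread alone.

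The 6 genes, the lists and the tests were chosen with earlier results of these data known. Named genes are the 6, neighbours between 44 and 46 Mb called in KO against WT kidneys, called relatives, and the genes most like each of the 6. Twnk, Slf2 and Pax2 were named besides for their position. Positions come from GENCODE vM21 and promoter windows from RefSeq GRCm38.p6, in which all 6 symbols were matched. Alternatives were other scalings (RLE, upper quartile), no filter, DESeq2 1.42.0, leaving out sex, ribosomal RNA genes, batch, 1 batch, libraries above 5% ribosomal RNA or 1 specimen, the title prefix as a block, and, added after seeing the data, the fit over all 24 specimens.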

Additional observations from a re-analysis of the deposited data

How the results depend on the processing

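The genes were chosen with the E11.5 differences known, so calls at E11.5 and their stability are no support for them. Over 12 alternatives the log2 fold change of Sema4g in KO against WT kidneys was -1.12 to -0.71. Kazald1 kept its call in Het against WT kidneys at E15.5 in 9 of 9 alternatives (-1.73 to -1.52). Of the 5 genes tested at E11.5, 2 were called in KO against WT kidneys. In 5 settings 1 was called: no replicate block, batch 1 alone, batch 2 alone, the title prefix as a block, and no libraries over 5% ribosomal RNA. In these same 5 settings the count in Het against WT kidneys was 0 in place of 1. Leaving out 1 embryo gave 1 to 3 in KO against WT and 0 to 1 in Het against WT kidneys. The count of 3 includes Kazald1, which passed the filter and was called without KO replicate 3 (-2.01) or KO replicate 4 (-1.75). The fit without the replicate block thus ended the Pdzd7 call (-0.49) and the Het call of Sema4g (-0.59). At E15.5 the count was 1 in place of 2 in batch 2 alone and in the fit over all 24 specimens. The counts for KO against Het, for the stages and for the difference of the Het effects stayed at 0, at 4 to 5 and at 0.

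In batch 1 alone the sign turned for Mrpl43 (0.04) in KO against WT kidneys, for Mrpl43 (-0.11) and Sfxn3 (0.18) in Het against WT kidneys, for Mrpl43 (0.14) and Lzts2 (0.09) in KO against Het kidneys, for Mrpl43 (0.18) and Sfxn3 (-0.17) between stages and for Pdzd7 (-0.19) in the difference of the Het effects. In batch 2 alone it turned for Sfxn3 in KO against WT (0.15), and for Mrpl43 in Het against WT (-0.02) and in KO against Het kidneys (0.01). With the title prefix as a block it turned for Mrpl43 (0.45) and Lzts2 (0.23) in KO against WT, for Mrpl43 (-0.16) in Het against WT, and for Mrpl43 (0.61) and Lzts2 (0.42) in KO against Het kidneys. Sfxn3 turned in KO against WT kidneys without libraries over 5% ribosomal RNA (0.01) and between stages under upper quartile scaling (-0.01). With 1 specimen left out, the sign turned within the ranges of Mrpl43 (-0.05 to 0.02) and Sfxn3 (-0.32 to 0.01) in KO against WT, Lzts2 in Het against WT kidneys at E11.5 (-0.07 to 0.03), Sfxn3 between stages (-0.09 to 0.10), and Mrpl43 (-0.03 to 0.05) and Pdzd7 (-0.02 to 0.09) in the difference of the Het effects. The cause of these changes was not tested.

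The number of all genes called ranged over the alternatives from 168 to 2142 around 1144 in KO against WT, from 0 to 61 around 11 in Het against WT and from 7 to 1778 around 595 in KO against Het kidneys at E11.5. At E15.5 it ranged from 13 to 155 around 104, and for the difference of the Het effects from 1 to 5 around 1.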
